A study of Mus musculus with 18 samples.

Results

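Respiratory complex I, the NADH:ubiquinone oxidoreductase of the inner mitochondrial membrane, was followed through its nuclear-encoded subunits in mouse lung around birth. Members were the probe sets whose single gene symbol begins with Nduf followed by a, b, c, s or v, with the Ndufaf assembly factors set apart. Of 35556 probe sets on the array, 41 met this rule, and they stand for 36 genes on 14 chromosomes. The rule used names and no measured values. Whole lung RNA was hybridized to Affymetrix Mouse Gene 1.0 ST arrays, 18 in all, in 6 groups of 3 that the study describes as biological replicates. Sex and litter are not given in the labels.

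The Scap Δ/Δ mice carried Scap flox/flox with SP-C-rtTA and (tetO)7CMV-Cre, a doxycycline-driven Cre whose rtTA comes from the surfactant protein C promoter, so that Scap was deleted in respiratory epithelium. Their controls were Scap flox/flox littermates without rtTA or without Cre, and both were taken at E18.5 (arrays C7, C8 and C9 for controls, KO10, KO11 and KO12 for Scap Δ/Δ) and at PN1, the day of birth (C13 to C15 and KO16 to KO18, in the same order). Mice of the other line, Insig1/2 Δ/Δ, carried Insig1 flox/flox with both transgenes on an Insig2-/- background and were taken at E17.5 (KO22, KO23 and KO24). Their controls (C19, C20 and C21) were Insig1 flox/flox, Insig2-/- littermates, so every mouse of that line lacked Insig2. Dams received doxycycline early in gestation only, for all groups. SCAP escorts the SREBP factors toward activation and the INSIG proteins hold SCAP back, so the lines address lowered and raised SREBP activity. The deletion reaches epithelium only, and the study describes it as incomplete.

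Complex I takes electrons from NADH and passes them to ubiquinone while protons are pumped across the inner membrane. Its core subunits hold the flavin and the iron-sulfur clusters. Accessory subunits stabilize the complex around the core and are named Ndufa, Ndufb, Ndufc or, for a few, Ndufs and Ndufv. Further core subunits are encoded by mitochondrial DNA and were not analysed here. In the perinatal lung, type II cells are rich in mitochondria, and surfactant synthesis and fluid clearance draw on ATP. The members fall into 3 genes of the NADH-oxidizing core (Ndufv1, Ndufv2, Ndufs1), 3 of the ubiquinone-reducing core (Ndufs3, Ndufs7, Ndufs8), 4 accessory genes named S or V, 14 named A, 9 named B, 2 named C, and Ndufab1, the mitochondrial acyl carrier protein. Ndufa4 has since been assigned to cytochrome c oxidase, and Ndufa4l2 is its hypoxia-induced paralog. Both are kept because the rule holds them.

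Promoter sequence was examined because subunits of the complex moved together from array to array. RefSeq windows of GRCm38.p6, from 250 bases before to 50 bases after a start, were given for 32 of the 36 genes, in 34 windows of 300 bases. Ndufa2, Ndufa4l2, Ndufb9 and Ndufs1 had none. The palindromic motif of NRF1, a regulator of nuclear genes for mitochondrial proteins, was searched on both strands as GCGCA, then any base, then GCGC. It was in 7 of the 34 windows (20.6%) and in 4.6% of all 32851 windows. The stretches below show it in capitals with 10 bases on each side, 5′ to 3′ on the gene's strand.
Ndufa11 (chr17:56717692-56717721, +): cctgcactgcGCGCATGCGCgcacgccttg
Ndufa5 (chr6:24527697-24527726, -): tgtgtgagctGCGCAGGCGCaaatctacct
Ndufa6 (chr15:82354249-82354278, -): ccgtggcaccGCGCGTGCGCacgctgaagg
Ndufa8 (chr2:36049349-36049378, -): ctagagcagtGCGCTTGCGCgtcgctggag
Ndufs5 (chr4:123718265-123718294, -): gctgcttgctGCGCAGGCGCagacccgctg
Ndufs6 (chr13:73328479-73328508, -): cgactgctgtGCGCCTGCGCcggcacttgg
Ndufa5 has 2 overlapping windows that share its match, so 7 windows hold 6 sites. All 6 genes encode accessory subunits, as most members do, since only 6 of the 36 genes are core.

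The letters AAGATGGC of YY1, which include an ATG, were also in 7 of the 34 windows (20.6%), against 2.75% of all windows. All 7 matches lay on the gene's strand within the 50 bases after the start, a place where 0.865% of all windows hold these letters. Whether the ATG is the start codon was not examined. The capitals below mark the match.
Ndufa3 (chr7:3617384-3617413, +): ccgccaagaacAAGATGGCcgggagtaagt
Ndufa9 (chr6:126849097-126849126, -): cattgtgggagAAGATGGCggccgccgtcc
Ndufb8 (chr19:44555393-44555422, -): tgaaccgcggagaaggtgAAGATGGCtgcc
Ndufc1 (chr3:51408915-51408944, -): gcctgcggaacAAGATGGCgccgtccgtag
Ndufs4 (chr13:114388045-114388074, -): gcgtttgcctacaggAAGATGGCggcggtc
Ndufs6 (chr13:73328433-73328462, -): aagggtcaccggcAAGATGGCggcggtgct
Ndufs7 (chr10:80249462-80249491, +): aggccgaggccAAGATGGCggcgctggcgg
Ndufs6 is the gene with both sets of letters. Other searches on both strands are given beside these. CCGGAAG of the ETS factors was in 11.8% of member windows and 8.86% of all, AAGGTCA of the ERRA factor in 5.88% and 4.72%, and GGGCGG of SP1 in 44.1% and 35.7%. TCACNCCAC of the SREBP factors was in 0 of the 34 member windows and in 1.24% of all. Matches to different motifs can share bases, as those of the ETS factors and SP1 do in the window of Ndufs3. A match is a description of the sequence alone.

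The lungs' labels were checked first. Scap read 9.75, 9.71 and 9.71 on the E18.5 control arrays and 9.47, 9.25 and 9.22 on the Scap Δ/Δ arrays, and at PN1 it read 9.91, 9.76 and 9.92 against 9.54, 9.53 and 9.65. Insig1 read 9.29 on the lowest E17.5 control and 8.58, 8.28 and 8.21 on the Insig1/2 Δ/Δ arrays. Neither targeted gene overlapped between its groups, although none passed the test over all probe sets (limma adjusted p = 0.511 and 0.0914 for Scap, 0.758 for Insig1). Insig2, absent by genotype from all 6 mice of that line, still read 8.75 to 9.09, and which part of the transcript the probes cover is not known here, so it checks nothing. The surfactant gene Sftpc lay above the 99.9th percentile of every array and the 6 thymus markers lay between percentiles 17.1 (Dntt) and 54.9 (Cd3e). KO17 and KO18 stood apart from the other 16 arrays. They correlated with each other at r = 0.994 and with the rest at 0.931 to 0.960, while the other 16 correlated among themselves at 0.973 to 0.998, and the SD of all values was 2.08 on both against 2.23 to 2.30 elsewhere. The E17.5 arrays fell into a set of C19, C20 and KO22 (r = 0.996 to 0.997) and a set of C21, KO23 and KO24 (0.993 to 0.995), with 0.984 to 0.991 between the sets.

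Complex I transcripts were abundant. The median subunit stood at percentile 87.8 of the array, 40 of the 41 probe sets lay above the 50th percentile and 34 above the 75th, with log2 values from 7.04 to 12.97. All 41 passed the filter on low values in both fits. In this bulk tissue, fewer cells of a type and less RNA per cell cannot be told apart. In 5 genes (Ndufa11, Ndufab1, Ndufb11, Ndufc1, Ndufs3) a pair of probe sets carried the same symbol, and which copy or pseudogene each measures is not known, so they count as uncertain. Their differences between groups lay a median of 0.05 apart on the log2 scale and at most 0.30 apart.

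**Figure D1:**
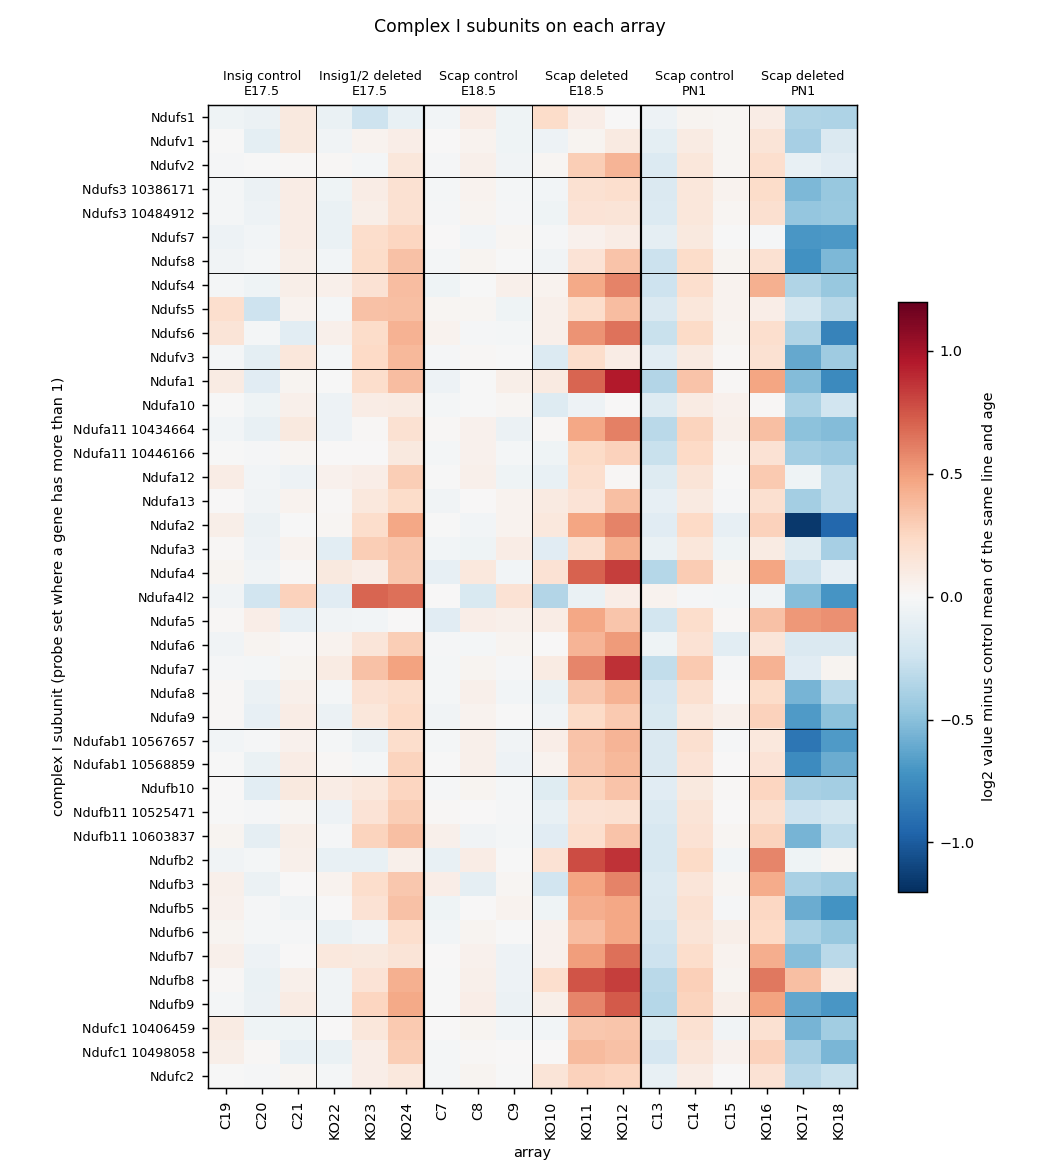
Each row is a complex I probe set, ordered by role, and each column 1 of the 18 arrays. Colour gives the log2 value minus the control mean of the same line and age, red for higher and blue for lower; columns KO11, KO12 and KO24 are mostly red, KO17 and KO18 mostly blue, and KO10 and KO22 near the controls.

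Scap deletion at E18.5 asked how subunit levels stood shortly before birth with SREBP activity lowered in epithelium. The Scap Δ/Δ mean lay above the control mean for 39 of 41 probe sets, with a median difference of 0.23 on the log2 scale, while 41.7% of all probe sets tested lay above 0 and their median was -0.04. No subunit passed an adjusted p of 0.05 in limma's test, where 0.00439% of all probe sets were called higher. At an unadjusted p under 0.05, 5 subunits were higher and 0 lower, with backgrounds of 4.39% and 4.85%. In 13 of 41 every Scap Δ/Δ array exceeded every control array, against 14.5% of all probe sets, and in 0 every one was lower, against 21%.

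The 2 largest differences were in accessory subunits of the membrane arm. Ndufb8 (chr19:44548571-44555442, GRCm38.p6), a membrane-arm subunit, read 9.90, 9.98 and 9.85 in controls and 10.12, 10.67 and 10.74 in Scap Δ/Δ lungs. All 3 deleted arrays were above the controls, KO10 by the least. The mean difference was 0.60 ± 0.20 (SE, n = 3 per group; limma adjusted p = 0.511). Ndufb2 (chr6:39592565-39599843), of the same arm, read 8.44, 8.62 and 8.52 against 8.70, 9.30 and 9.39. Its groups did not overlap either, and the difference was 0.61 ± 0.21 (limma adjusted p = 0.511).

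The 3 next in order of p were Ndufa4, Ndufa7 and Ndufa5. Ndufa4, the subunit now placed in cytochrome c oxidase, read 10.45, 10.67 and 10.52 in controls and 10.72, 11.25 and 11.38 in Scap Δ/Δ lungs, a difference of 0.57 ± 0.23 (limma adjusted p = 0.535). Ndufa7, an accessory subunit of the matrix arm, read 9.84, 9.89 and 9.85 against 9.96, 10.45 and 10.73. The controls of Ndufa7 spanned far less than its deleted arrays, and the difference was 0.52 ± 0.21 (limma adjusted p = 0.535). Ndufa5, also of the matrix arm, read 7.83, 8.04 and 8.02 against 8.05, 8.43 and 8.30, a difference of 0.30 ± 0.13 (limma adjusted p = 0.541). For each of the 3, KO10 was the deleted array nearest the controls.

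The core and the other subunits were not tested against each other. The 7 core probe sets had a median difference of 0.10 with 0 of 7 separated between groups, and the 34 others a median of 0.26 with 13 of 34 separated. Ndufv1, which binds NADH and the flavin, read 10.61, 10.65 and 10.55 in controls and 10.55, 10.63 and 10.71 in Scap Δ/Δ lungs. Ndufs7, which carries the last iron-sulfur cluster before ubiquinone, read 12.23, 12.18 and 12.24 against 12.20, 12.27 and 12.30. Both genes overlapped between the groups, and their differences of 0.03 and 0.04 were the smallest of the core. Ndufv2, an iron-sulfur subunit of the NADH-oxidizing core, had the largest of the core, at 0.24. The 10 probe sets named B had the median 0.29, the 15 named A 0.22, the 3 named C 0.23 and the pair of Ndufab1 0.26. The 2 members below 0 were Ndufa10 and Ndufa4l2. Ndufa4l2 read 10.05, 9.87 and 10.22 against 9.69, 9.97 and 10.13, a difference of -0.12 ± 0.17 (limma adjusted p = 0.812), and without KO10 it was 0.00445.

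The arrays of the group did not move alike. KO11 and KO12 exceeded every E18.5 control in 36 of 41 probe sets, with medians of 0.33 and 0.37 above the control mean, whereas the median of KO10 was 0.00, with 14 probe sets above every control, 11 within their range and 16 below. KO12 held the highest value of the 12 Scap arrays for 27 members. Shares of all probe sets with these array patterns were not counted. Markers of other cells also differed from the controls, some mainly on KO11 and KO12 and the type II markers on KO10 as well. On KO11, 6 of 6 endothelial markers and 4 of 6 fibroblast markers lay below the control mean (medians -0.26 and -0.16), and on KO12 5 of 6 and 5 of 6 did (medians -0.23 and -0.30). Type II markers summed to between 44470 and 46566 in E18.5 controls and to 39482 on KO10, 39688 on KO11 and 43152 on KO12. Cardiac muscle markers summed to between 13398 and 14330 in controls and between 12708 and 18635 in Scap Δ/Δ lungs. Of these, 8 of 10 lay above the control mean on KO11 and 6 of 10 on KO12. The summed endothelial level ran from 21218 to 21498 in E18.5 controls and from 18498 to 20919 in Scap Δ/Δ lungs, and the fibroblast level from 13619 to 14250 and from 12414 to 14256. No endothelial or fibroblast marker was near the bottom of the array, and the part of these markers in the result was not tested. The 5 brown fat markers summed to between 862 and 892 in E18.5 controls, 873 on KO10, 1626 on KO11 and 1607 on KO12. Of these, Cox7a1 and Cox8b, which are also muscle isoforms of cytochrome c oxidase subunits and in the list of complexes II to V, passed the filter, with a median difference of 0.69 and both at an unadjusted p under 0.05. Ucp1, Cidea and Elovl3 stayed at or below percentile 30.6 on all 18 arrays. The part of this list was not tested either. Leaving out 1 array at a time moved the median over members between 0.15 and 0.35, highest without KO10.

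**Figure D2:**
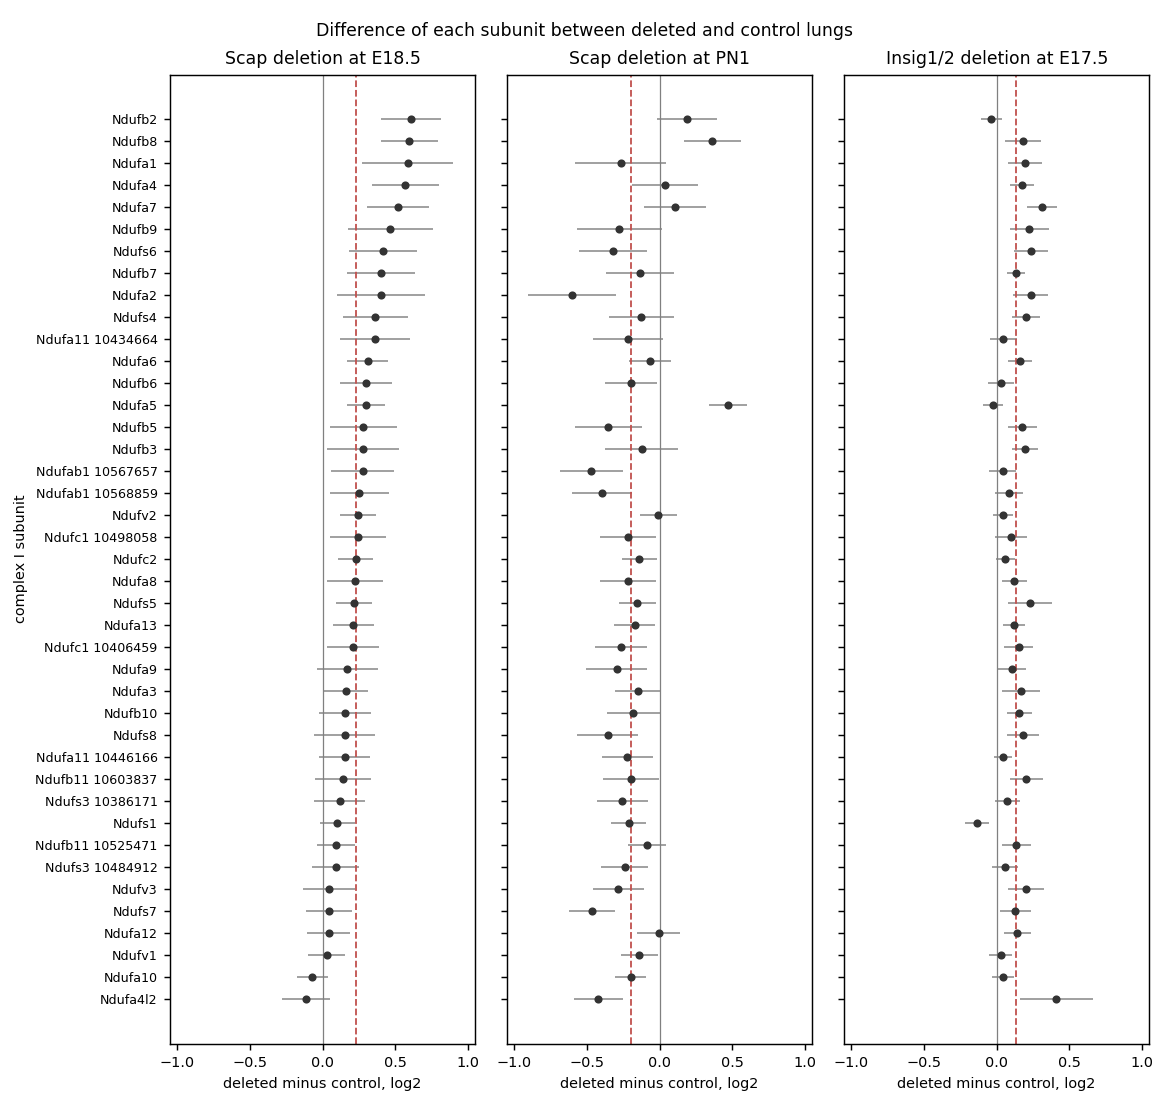
Points give the deleted minus control difference of each complex I probe set on the log2 scale with its standard error as bars (n = 3 per group), in the order of the E18.5 values, and the dashed line is the median over members. The medians are 0.23 for Scap deletion at E18.5, -0.20 at PN1 and 0.13 for Insig1/2 deletion at E17.5, and most bars of single subunits reach or approach 0.

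Scap deletion at PN1 asked the same on the day of birth. The Scap Δ/Δ mean lay below the control mean for 36 of 41 probe sets, with a median difference of -0.20. Of all probe sets tested 57.9% lay below 0, and their median was -0.06. This background depended on the filter, with a median of -0.12 when the filter was at the 50th percentile and 0.03 with no filter. No subunit passed an adjusted p of 0.05, where 0.00877% of all probe sets were called lower. At an unadjusted p under 0.05, 2 were lower and 1 higher, against backgrounds of 20.8% and 11.5%. Groups were fully separated for 1 subunit in each direction, against 5.59% of all probe sets higher and 11% lower.

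The 5 members above 0 were Ndufa5, Ndufb8, Ndufb2, Ndufa7 and Ndufa4, and Ndufa5 was the one higher at an unadjusted p under 0.05. It read 7.74, 8.17 and 7.98 in PN1 controls and 8.31, 8.49 and 8.51 in Scap Δ/Δ lungs, above every control on all 3 arrays, a difference of 0.47 ± 0.13 (limma adjusted p = 0.0904). Ndufs7 read 12.16, 12.39 and 12.27 against 12.26, 11.58 and 11.58. KO16 was within the controls and the other deleted arrays far below them, and the difference was -0.46 ± 0.16 (limma adjusted p = 0.0989). Ndufa4l2 read 9.29, 9.24 and 9.23 against 9.21, 8.74 and 8.55, separated between groups, a difference of -0.42 ± 0.17 (limma adjusted p = 0.125).

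Ndufab1, whose acyl chain is needed for lipoic acid synthesis and complex I assembly, and Ndufa2, a small matrix-arm subunit, had the largest negative values. Ndufab1 (probe set 10567657) read 9.92, 10.28 and 10.08 against 10.22, 9.23 and 9.41, a difference of -0.47 ± 0.22 (limma adjusted p = 0.160). Ndufa2 read 9.98, 10.36 and 10.02 against 10.40, 8.96 and 9.18, a difference of -0.61 ± 0.30 (limma adjusted p = 0.185). In both genes KO16 was on the high side of the controls and KO17 and KO18 below all of them.

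Subunits outside this group show the same split in their array values. Ndufb9, of the membrane arm, read 10.88, 11.48 and 11.28 in PN1 controls and 11.70, 10.59 and 10.52 in Scap Δ/Δ lungs. Ndufa1, an X-linked subunit of the membrane arm, read 8.34, 9.03 and 8.71 against 9.17, 8.18 and 7.93. In both, KO16 was above every control and KO17 and KO18 below. Ndufs6, a zinc-binding subunit needed late in assembly, read 9.37, 9.86 and 9.66 against 9.83, 9.27 and 8.83, with KO16 among the controls. In Ndufs1 the range was narrower, 9.82, 9.92 and 9.91 against 9.97, 9.53 and 9.52. By role, medians were -0.14 for the NADH-oxidizing core, -0.31 for the ubiquinone-reducing core, -0.22 for accessory S and V, -0.20 for A, -0.16 for B, -0.22 for C and -0.43 for Ndufab1. KO17 and KO18 were lowest in Ndufab1, at medians of -0.81 and -0.64, and the ubiquinone-reducing core was at -0.62 and -0.50.

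The split ran through the whole complex. KO16 lay above the control mean in 39 of 41 probe sets and above every PN1 control in 29, with a median of 0.22. KO17 and KO18 lay below every PN1 control in 34, with medians of -0.40 and -0.41, and above every control only in Ndufa5. The PN1 controls were themselves spread, at medians of -0.17 for C13, 0.17 for C14 and 0.02 for C15 around their mean. C14 exceeded C13 in 40 of 41 probe sets and C15 lay between them in 39. For none of these array patterns was the share of all probe sets counted. KO17 and KO18 stood apart from the other arrays over all probe sets, as given above. With KO17 and KO18 left out, so that KO16 alone stood for the group, the median over members was 0.22 instead of -0.20, Ndufab1 (probe set 10567657) was at 0.13, Ndufa2 at 0.28 and Ndufa5 at 0.35. With KO16 left out, it was -0.42, and 30 of 41 subunits passed an adjusted p of 0.05 where 14078 of all 22800 probe sets did.

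Other markers differed from the controls on KO17 and KO18, and those of type II and erythroid cells on KO16 as well. Type I cell markers lay below the control mean in 6 of 6 on both arrays (medians -0.35 and -0.32), type II markers in 7 of 8 (-0.45 and -0.33) and macrophage markers in 5 and 6 of 6 (-0.50 and -0.51). Summed levels of type II markers ran from 46300 to 47335 in PN1 controls and were 40434 on KO16, 34401 on KO17 and 33743 on KO18. Those of type I markers ran from 25583 to 26433 in controls and from 20331 to 26056 in Scap Δ/Δ lungs. Those of macrophage markers ran from 10458 to 11126 and from 6534 to 10496, in the same order. All 3 erythroid markers lay below the control mean on each of KO16, KO17 and KO18 and at an unadjusted p under 0.05 in the PN1 comparison, with a median of -0.40. Their sum ran from 3800 to 4686 in controls and from 2777 to 3408 in Scap Δ/Δ lungs. On C13 and C14, which differ in complex I, 6 of 6 endothelial markers lay above and below the control mean (medians 0.23 and -0.20). The part of these markers in the subunit values was not tested.

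**Figure D3:**
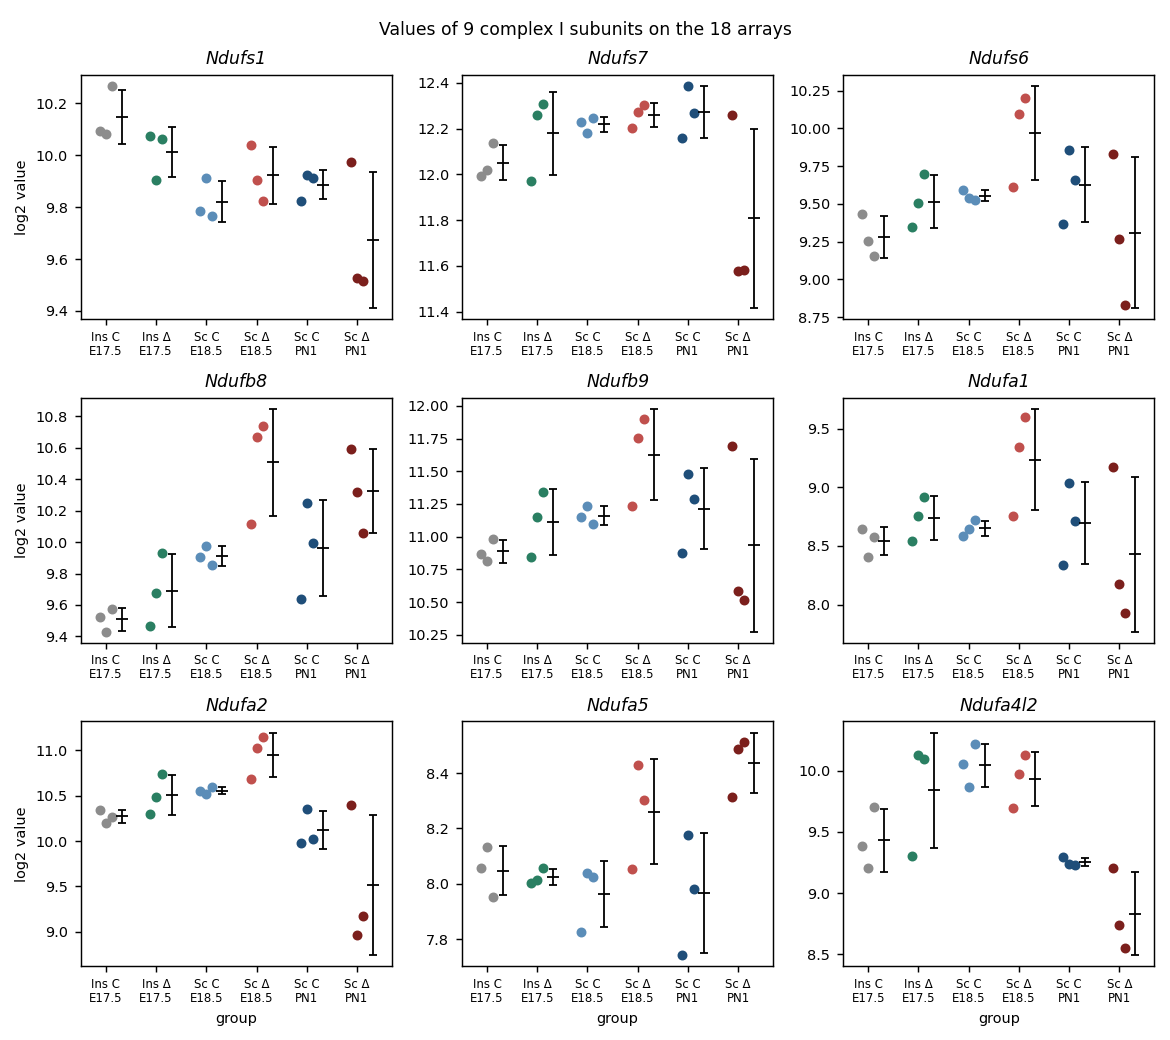
Points are the log2 values of 9 complex I subunits on the 18 arrays, with the group mean and SD (n = 3) beside each group; Ins and Sc stand for the Insig and Scap lines, C for control and Δ for deleted. In Ndufs7 and Ndufb9 the PN1 Scap Δ/Δ group splits into 1 array near or above the controls and a lower pair, and in Ndufa4l2 all 6 PN1 arrays lie below the 6 of E18.5.

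Insig1/2 deletion at E17.5 asked how the subunits stood with INSIG removed from epithelium. The Insig1/2 Δ/Δ mean lay above the control mean for 38 of 41 probe sets with a median of 0.13, against 54.4% of all probe sets and a median of 0.01. No subunit passed an adjusted p of 0.05 in limma's test, where 0 of 22775 probe sets did in either direction. At an unadjusted p under 0.05, 1 subunit was higher and 0 lower, with backgrounds of 2.2% and 1.9%. Groups were separated upward for 4 subunits, Ndufa4, Ndufa6, Ndufa7 and Ndufb7, against 5.83% of all, and downward for Ndufs1, against 4.22%.

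Ndufa7 read 9.41, 9.41 and 9.46 in controls and 9.53, 9.78 and 9.91 in Insig1/2 Δ/Δ lungs, a difference of 0.31 ± 0.11 (limma adjusted p = 0.758). Ndufs1, the largest iron-sulfur subunit of the NADH-oxidizing core, read 10.10, 10.08 and 10.27 against 10.07, 9.90 and 10.06, a difference of -0.14 ± 0.09 (limma adjusted p = 0.758). KO22 and KO24 sat just under the lowest control, and KO23 further below. Of the next smallest p, Ndufs4 was at 0.20 ± 0.10, Ndufb3 at 0.19 ± 0.09, Ndufb7 at 0.13 ± 0.06 and Ndufa4 at 0.17 ± 0.08 (limma adjusted p = 0.758 for all 4). Each of these accessory subunits was highest on KO24. By role, accessory S and V had the median 0.22, accessory B 0.17, accessory A 0.14, the ubiquinone-reducing core 0.10 and the NADH-oxidizing core 0.03.

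Here too the arrays differed. KO24 held the highest value of the 6 arrays for 37 members and KO23 and KO24 exceeded every control in 28. KO22 stayed within the range of the controls in 27. Again, shares of all probe sets with such patterns were not counted. Medians were -0.02 for KO22, 0.13 for KO23 and 0.29 for KO24. Within the set of C19, C20 and KO22 the median difference of the members was 0.00 and within C21, KO23 and KO24 it was 0.18, and with the set as a block it was 0.08. Type I markers lay above the control mean in 6 of 6 on KO23 and KO24 (medians 0.36 and 0.36) and below it in 6 of 6 on KO22, and type II markers in 7 of 8 above on KO23 and KO24 and 8 of 8 below on KO22. Cardiac markers lay above it in 10 of 10 on C21 (median 1.22) and below in 10 of 10 on C19, C20 and KO22. Summed type II levels ran from 29268 to 43681 in controls and from 33534 to 43221 in Insig1/2 Δ/Δ lungs, type I levels from 18350 to 21862 and from 18465 to 23763, and cardiac levels from 9975 to 39817 and from 11189 to 19797. The complex I median on C21, the array highest in cardiac markers, was 0.05. The part of these markers in the subunit values was not tested.

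E18.5 was compared with the day of birth in each genotype. These comparisons share arrays with those above. In controls the members were level, with 21 of 41 above 0 (52.1% of all probe sets) and a median of 0.00. At an adjusted p under 0.05, 1 subunit was lower and 0 higher, with backgrounds of 1.39% and 1.19%, and an unadjusted p under 0.05 added none (7.25% and 6.21%). Groups were separated downward for 5 of 41 and upward for 1, Ndufv1, against 16.5% and 17.6% of all probe sets. The subunit called was Ndufa4l2 (chr10:127509274-127517154), which read 10.05, 9.87 and 10.22 at E18.5 and 9.29, 9.24 and 9.23 at PN1. The 6 control arrays separated by age with little spread at PN1, and the difference was -0.79 ± 0.17 (limma adjusted p = 0.0357). Its size kept between -0.88 and -0.71 when each array was left out in turn, with an adjusted p from 0.0733 to 0.154, so the call depends on all 6 arrays.

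The subunits next in p were not called. Ndufa6 stood at -0.29 ± 0.14 (limma adjusted p = 0.430), Ndufb11 (probe set 10603837) at -0.32 ± 0.19 (adjusted p = 0.608) and Ndufa2 at -0.43 ± 0.30 (adjusted p = 0.688). Ndufv1 had the smallest p among the members above 0, at 0.19 ± 0.13 (limma adjusted p = 0.655). The median depended on C14, since without it 6 of 41 members lay above 0 and the median was -0.10.

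In Scap Δ/Δ lungs, 39 of 41 members lay lower at PN1 than at E18.5 (52.1% of all probe sets), with a median of -0.42. The median of all probe sets was -0.03, but -0.12 with the filter at the 50th percentile and 0.08 with no filter. Of the members, 15 passed an adjusted p of 0.05, all lower. In this comparison 20.1% of all probe sets were called lower and 17.5% higher. At an unadjusted p under 0.05, 23 members were lower and 0 higher, with backgrounds of 27.9% and 24.6%. At the threshold of the study's methods 1 passed, Ndufa4l2, against 4.5% of all. The members called were 5 probe sets named A, 2 of Ndufab1, 2 named B, 2 of Ndufc1, 2 of the ubiquinone-reducing core (Ndufs7, Ndufs8) and the accessory Ndufs5 and Ndufs6, with 0 of the NADH-oxidizing core. Groups were separated for 4 of 41 (Ndufa2, Ndufa4l2, Ndufa6, Ndufa13), against 17.3% of all probe sets, and upward for 0, against 16.7%.

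Ndufa4l2 read 9.69, 9.97 and 10.13 at E18.5 and 9.21, 8.74 and 8.55 at PN1, a difference of -1.10 ± 0.17 (limma adjusted p = 0.00339). Ndufa2 read 10.68, 11.03 and 11.15 and then 10.40, 8.96 and 9.18, a difference of -1.44 ± 0.30 (limma adjusted p = 0.0106). Ndufa6, an accessory subunit at the base of the matrix arm, read 11.08, 11.49 and 11.59 and then 10.93, 10.61 and 10.61, a difference of -0.67 ± 0.14 (limma adjusted p = 0.0113). In these 3 every PN1 array was below every E18.5 array, and KO16 was nearest in each. Ndufc1, a small membrane subunit, fell by 0.67 ± 0.18 and 0.69 ± 0.19 in its pair of probe sets, Ndufab1 (10567657) fell by 0.75 ± 0.22, Ndufb5 fell by 0.79 ± 0.23, and Ndufa13, also known for a part in cell death, fell by 0.48 ± 0.14 (limma adjusted p from 0.0218 to 0.0290).

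Most of these calls were lost when any of 4 arrays was left out. Leaving out 1 array gave 20 calls without KO10, 3 without KO11, 3 without KO12, 37 without KO16, 2 without KO17 and 3 without KO18, while 25.3%, 8.96%, 10.6%, 72.1%, 7.48% and 8.5% of all probe sets were called. Without KO17 and KO18 together, KO16 alone stood for PN1 and was assumed to vary like the other groups. Then 1 of 41 passed, Ndufa4l2 at -0.72 (limma adjusted p = 0.0382), beside 6.08% of all probe sets, and the median over members was -0.01. Ndufa2 was then at -0.56 (adjusted p = 0.115) and Ndufa6 at -0.45 (adjusted p = 0.182). With every array kept, Ndufa5 was the member furthest above 0, at 0.18 ± 0.13 (limma adjusted p = 0.279).

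**Figure D4:**
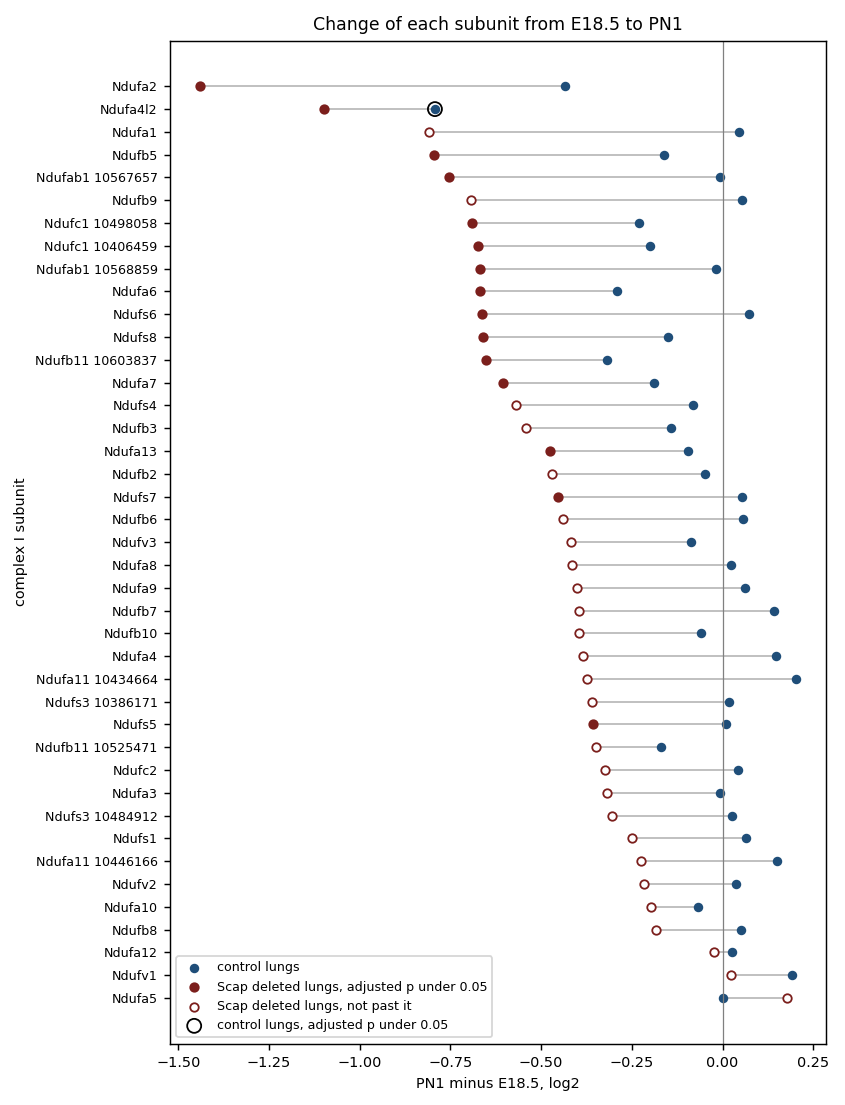
For each complex I probe set the PN1 minus E18.5 difference on the log2 scale is given for control lungs and for Scap Δ/Δ lungs, ordered by the latter, with filled red points for an adjusted p under 0.05. Control points scatter around a median of 0.00 with Ndufa4l2 at -0.79, and the Scap Δ/Δ points have a median of -0.42.

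The difference between the Scap effects at the 2 ages was tested as the interaction in the same fit. It was below 0 in 40 of 41 members, against 53.5% of all probe sets, with a median of -0.40. No member passed an adjusted p of 0.05 in limma's test, and 0 of all 22800 probe sets did; at an unadjusted p under 0.05, 5 members were lower and 0 higher, with backgrounds of 10.1% and 8.25%. These were both probe sets of Ndufab1 (-0.75 ± 0.31 and -0.65 ± 0.29), Ndufa2 (-1.01 ± 0.43), Ndufs7 (-0.51 ± 0.22) and Ndufs6 (-0.74 ± 0.33), all at an adjusted p of 0.265. Ndufa5 alone was above 0, at 0.18 ± 0.19 (limma adjusted p = 0.505). Without KO17 and KO18 the median was 0.000513. Without KO16, 32 of 41 members passed, where 58.3% of all probe sets did.

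Other genes of oxidative phosphorylation and of complex I assembly had list medians on the same side of the controls as the subunits on KO11, KO12, KO16, KO17, KO18 and KO24. On KO24 complex I had the median 0.29, complexes II to V 0.24 and the assembly factors 0.14. On KO11 and KO12 the medians were 0.28 and 0.33 for 59 probe sets of complexes II to V and 0.33 and 0.41 for 17 assembly factors, and on KO17 and KO18 they were -0.29 and -0.26, and -0.44 and -0.50. At E18.5, 54 of 59 probe sets of complexes II to V and 15 of 17 assembly factors lay above 0 with none called. At PN1, 42 of 59 and 15 of 17 lay below 0 (57.9% of all probe sets) with none called. At an unadjusted p under 0.05 complexes II to V had 7 probe sets higher and 3 lower, against 11.5% and 20.8% of all. Groups were separated upward for 7 and downward for 1, against 5.59% and 11% of all. All 7 that were higher and all 7 separated upward were of complex V. A probe set of Atp5l (10354739), of ATP synthase, had the smallest p of complex V there, at 0.94 ± 0.22 (limma adjusted p = 0.0897). In Insig1/2 Δ/Δ lungs 54 of 59 and 10 of 17 (58.8%) lay above 0, again with none called. The share of assembly factors is near the 54.4% of all probe sets.

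From E18.5 to PN1 in Scap Δ/Δ lungs, 15 of 59 probe sets of complexes II to V and 7 of 17 assembly factors were called lower and 0 higher, beside the 20.1% of all probe sets. Tmem126b, needed to build the membrane arm, fell by 1.37 ± 0.26 (limma adjusted p = 0.00738), and Nubpl, which delivers iron-sulfur clusters to complex I, fell by 0.37 ± 0.09 (adjusted p = 0.0144). Sdhd of complex II fell by 0.80 ± 0.21 (adjusted p = 0.0203), Uqcrh of complex III by 0.58 ± 0.16 (adjusted p = 0.0259), Cox7b of complex IV by 0.45 ± 0.14 (adjusted p = 0.0315) and Atp5e of complex V by 0.91 ± 0.27 (adjusted p = 0.0292). In controls none of either list was called, where only 1.39% of all probe sets were called lower and 1.19% higher. Calls in the Scap Δ/Δ comparison over all probe sets varied with single arrays, as given for the subunits.

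Lists outside the respiratory chain were alike on some arrays and not on others. TCA cycle enzymes (13 probe sets) had medians of -0.01 and 0.01 on KO11 and KO12, where complex I was high, and of -0.67 and -0.64 on KO17 and KO18. Cytosolic ribosomal proteins (209 probe sets of 54 genes, so that many genes count several times) had medians of 0.16 and 0.20 on KO11 and KO12 and of 0.00 on both KO17 and KO18. Of the ribosomal probe sets 186 of 209 lay above 0 at E18.5 (41.7% of all probe sets) and 195 of 209 after Insig1/2 deletion (54.4% of all). From E18.5 to PN1 in Scap Δ/Δ lungs 105 were called lower and 0 higher, beside 20.1% and 17.5% of all probe sets, with a median of -0.30. In controls 207 of 209 also lay below 0 over these ages, with a median of -0.20. There 0 were called, beside 1.39% of all probe sets lower and 1.19% higher, and 161 were separated downward against 16.5% of all probe sets. Citrate synthase (Cs) had the smallest p of the TCA list at PN1, at -0.45 ± 0.13 (limma adjusted p = 0.0914). Regulators of mitochondrial biogenesis (16 probe sets) had medians between -0.09 and 0.05 on all 18 arrays, but single members moved both ways. For Scap deletion at PN1 their differences ran from -1.02 to 0.47, with none called. At an unadjusted p under 0.05, 7 of the 16 were lower there and 1 higher, against 20.8% and 11.5% of all probe sets. From E18.5 to PN1 in Scap Δ/Δ lungs, 2 of the 16 rose and 7 fell at an adjusted p under 0.05, beside 17.5% and 20.1% of all probe sets. Pprc1, a coactivator of NRF1, rose by 0.49 ± 0.09 (adjusted p = 0.00701), and Yy1 fell by 0.48 ± 0.11 (adjusted p = 0.0127) and Tfb2m, a mitochondrial transcription factor, by 0.88 ± 0.22 (adjusted p = 0.0181). Calls in this comparison over all probe sets depended on single arrays, as given above.

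**Figure D5:**
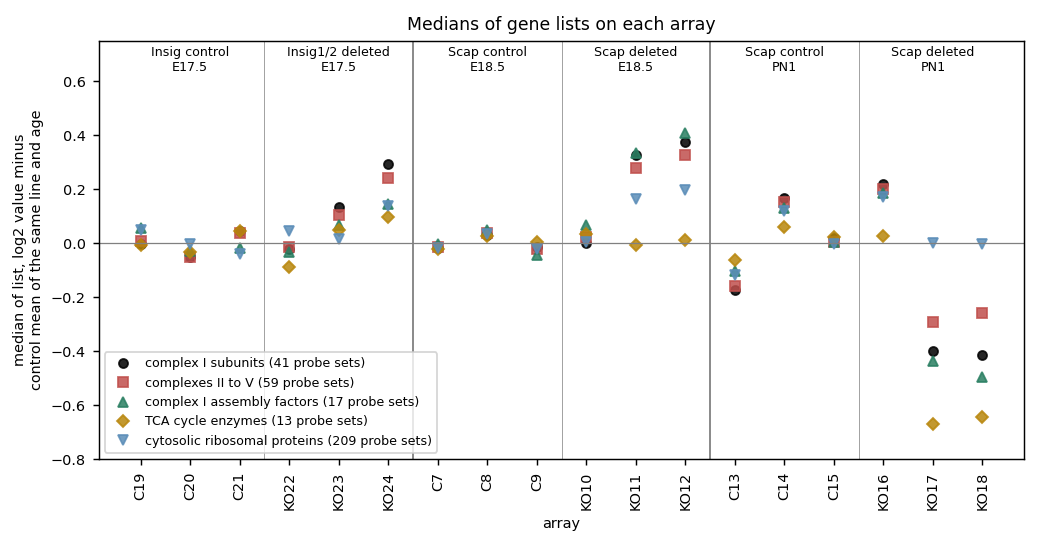
Each point is the median of a gene list on 1 of the 18 arrays, as log2 value minus the control mean of the same line and age. Complex I, complexes II to V and the assembly factors are up on KO11, KO12 and KO16 and down on KO17 and KO18, while TCA cycle enzymes are near 0 on KO11 and KO12 and ribosomal proteins near 0 on KO17 and KO18.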

How the data were processed

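The authors deposited log2 expression values per probe set, from Affymetrix Mouse Gene 1.0 ST arrays of whole lung RNA, and analysed them in GeneSpring. The summarization and normalization behind these log2 values are not given in the sources used here. No depth exists for arrays, and their number limits the precision. Groups were taken from the labels. Of 35556 probe sets, 21789 pair with 1 gene symbol, 1621 with several and 12146 with none. Probe sets with several symbols were left out, among them 3 that name Nduf genes.

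Probe sets at or above the 35th percentile of the array in at least 66% of a fit's arrays were kept, as in the study's methods. limma 3.58.1 (R 4.3.3) was fitted with 1 mean per group to the 12 Scap arrays (22800 probe sets) and the 6 Insig arrays (22775), and p was adjusted by Benjamini and Hochberg over all of them, with calls under 0.05. At the methods' threshold (adjusted p of at most 0.01 and a fold of at least 1.5), 0 members passed in any comparison of deletion with control. The two-way ANOVA of the methods was not repeated. With 3 arrays per group an exact permutation test could not reach 0.05.

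The members and lists were chosen with earlier results of these data known. Subunits were given statistics by a rule: those past the threshold with the smallest p (at most 8), the 5 smallest p of a comparison, and the smallest p opposite in sign to the median. Genes of other lists were named if they passed (at most 3) or had the smallest p. The fit was tested on simulated data. Alternatives changed the filter, scaling, arrays, spread model, weights, probe sets per gene and single arrays. Figures were made with Python 3.11.15 and matplotlib 3.10.9. Promoter windows are RefSeq's, GRCm38.p6.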

Additional observations from a re-analysis of the deposited data

Results flagged for a closer look

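Ndufs1 was picked out because Scap Δ/Δ arrays at E18.5 and Insig1/2 Δ/Δ arrays at E17.5 lay on opposite sides of their control means. This held for every array of those groups, although KO11 and KO12 lay within the range of the E18.5 controls. At PN1 it did not hold, since KO16 stood at 0.09, KO17 at -0.36 and KO18 at -0.37 from the control mean. On the log2 scale KO10, KO11 and KO12 stood 0.22, 0.08 and 0.000369 above the E18.5 control mean, and KO22, KO23 and KO24 stood at -0.08, -0.24 and -0.09 from the E17.5 control mean. The group differences were 0.10 for Scap at E18.5 and -0.14 for Insig1/2, which lie 0.24 apart. This difference was not tested, since line and age differ together.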

How the results depend on the processing

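Counts of subunits called moved most with the treatment of single arrays. With limma's array weights 14 subunits were called for Scap deletion at E18.5, 33 at PN1, 22 for Insig1/2 deletion, 38 from E18.5 to PN1 in Scap Δ/Δ lungs (median -0.76) and 38 for the difference between the ages (median -0.74), where 11.2%, 68.1%, 36.7%, 76.1% and 64.4% of all probe sets were called, and KO16 had the weight 0.0489. Without KO17 and KO18 the PN1 median was 0.22, with Ndufab1 (10567657) at 0.13 and Ndufa2 at 0.28, the Scap Δ/Δ change from E18.5 to PN1 had 1 call and a median of -0.00717, and the difference between the ages had a median of 0.000513. One fit of all 18 arrays gave 2 calls at PN1 and 0 for the control change from E18.5 to PN1, which also had 0 with median centring, with no filter, in the unmoderated test and with any of the 6 arrays left out. The unmoderated test gave 6 calls for the Scap Δ/Δ change. Leaving out 1 array gave 0 to 30 calls at PN1, 2 to 37 for the Scap Δ/Δ change, 0 to 32 for the difference between the ages, and 0 at E18.5 and at E17.5. The highest of these counts came without KO16, where 61.7%, 72.1% and 58.3% of all probe sets were called. Ndufa4l2 at E18.5 ran from -0.22 to 0.00445, the latter without KO10. The Insig1/2 median was 0.00300 within C19, C20 and KO22. The causes were not tested. Median centring moved the median of all probe sets at PN1 from -0.06 to -0.19 and that of the members from -0.20 to -0.33. With quantile normalization the median of all probe sets was -0.10 and that of the members -0.11, so the members hardly differed from the rest. Of the subunits given with statistics, 596 of their values under alternatives kept direction and side, 30 gained the threshold, 40 lost it, 8 moved and 3 changed sign. No paired analysis was possible because each array number occurs in 1 group only. The number of arrays limits the precision.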
